A study of Mus musculus with 12 samples.

Results

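Igfbp3, which encodes insulin-like growth factor binding protein 3, was followed together with 9 other members of the insulin-like growth factor (IGF) family in germ cells of mouse testes. The members were the carriers Igfbp2, Igfbp3, Igfbp4, Igfbp5, Igfbp6 and Igfbp7, the ligands Igf1 and Igf2, and the receptors Igf1r and Igf2r. They were found by gene symbol, and all 10 were among the 21429 genes of each deposited count table. Igfbp3 was selected on its measured rise in knockout pachytene spermatocytes, so its values in that contrast are a description with no test, and the other 9 were added as its family.

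The study deleted Hdac3, which encodes a histone deacetylase of nuclear receptor corepressor complexes, in male germ cells. Knockout (KO) mice were Stra8-cre/Hdac3fl/-, with 1 floxed allele, 1 null allele and a Cre transgene driven by the Stra8 promoter in premeiotic germ cells, so that somatic cells keep the floxed allele. Control mice were Hdac3fl/+, labelled wild type, with no Cre named, so KO and control animals shared a floxed allele and differed in the transgene as well as in the null allele. RNA was sequenced from KO round spermatids (KO RS), control RS, KO pachytene spermatocytes (KO PS) and control PS, with 3 libraries in each group described as biological triplicates. PS are germ cells in meiotic prophase, and RS are their haploid descendants. The age of the mice and the way the cells were isolated were not stated in the labels. The libraries are called replicate 1, replicate 3 and the remaining replicate, which could be tied to its group but not to 1 sample title.

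IGF1 and IGF2 are secreted ligands that activate the receptor tyrosine kinase IGF1R, which signals through insulin receptor substrates to the PI3K, AKT and MAP kinase pathways. IGF2R binds IGF2, carries it to lysosomes and also sorts mannose 6-phosphate enzymes. The binding proteins hold most extracellular IGF, and IGFBP3 is the main carrier in serum, while in the testis this signalling is known for its roles in Sertoli cell proliferation and in Leydig cells.

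Total gene counts were 11205732 to 17467583 per library, and the remaining replicate was the shallowest of each group. Levels are CPM, library-normalised counts on the per-million scale after TMM scaling, and 3 counts, taken as the floor, were worth 0.152 to 0.244 CPM. Hdac3 was at 13.5 to 17.1 CPM in KO RS and 42.3 to 52.9 CPM in control RS, and at 17.8 to 24.8 CPM in KO PS and 53.0 to 82.5 CPM in control PS. The summed CPM of 13 round spermatid markers was 7101 to 16320 in KO RS and 11630 to 25430 in control RS, against 1047 to 1832 in KO PS and 2253 to 4023 in control PS. The sum of 13 pachytene markers was 1993 to 2346 in KO RS and 2113 to 2307 in control RS, against 4258 to 5585 in KO PS and 4713 to 4848 in control PS. Markers of somatic testis cells were also present in every group, and their sums stand beside the members below.

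The promoters of Igfbp3, Igf1r and Igf2r are shown because these were the members whose RNA was called higher in KO RS. Igfbp3 lies on the minus strand of chromosome 11 from 7206086 to 7213923 (GRCm38) and has 5 exon blocks. Each sequence is the 250 bases before the RefSeq transcription start on build GRCm38.p6, read 5′ to 3′ on the gene's strand. The windows are chr11:7213924-7214173 for Igfbp3 (minus strand), chr7:67952007-67952256 for Igf1r (plus strand) and chr17:12769707-12769956 for Igf2r (minus strand). Capitals mark matches on either strand to a GC box (GGGCGG), the nuclear receptor element AGGTCA or a TATA repeat (TATATA).
Igfbp3: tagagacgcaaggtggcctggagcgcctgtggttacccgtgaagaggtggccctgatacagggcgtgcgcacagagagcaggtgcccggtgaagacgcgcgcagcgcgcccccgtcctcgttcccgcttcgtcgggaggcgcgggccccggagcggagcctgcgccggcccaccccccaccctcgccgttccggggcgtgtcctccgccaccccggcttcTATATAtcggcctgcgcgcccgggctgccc
Igf1r: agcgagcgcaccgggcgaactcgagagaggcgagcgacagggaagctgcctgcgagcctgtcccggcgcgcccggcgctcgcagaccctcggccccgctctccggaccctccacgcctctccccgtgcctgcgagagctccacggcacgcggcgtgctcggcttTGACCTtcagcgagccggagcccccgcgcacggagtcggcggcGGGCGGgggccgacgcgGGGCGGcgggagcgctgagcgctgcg
Igf2r: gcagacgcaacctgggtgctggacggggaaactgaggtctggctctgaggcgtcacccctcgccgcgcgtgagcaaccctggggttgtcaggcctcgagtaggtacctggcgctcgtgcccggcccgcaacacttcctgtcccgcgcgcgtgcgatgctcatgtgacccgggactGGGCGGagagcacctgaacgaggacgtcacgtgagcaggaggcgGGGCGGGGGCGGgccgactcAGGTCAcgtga

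The Igfbp3 window held the TATA repeat, which began 30 bases before the start, and neither a GC box nor AGGTCA. The Igf1r window held 2 GC boxes and 1 AGGTCA element, read as TGACCT on this strand, and the Igf2r window held 3 GC boxes and 1 AGGTCA element. A GC box was found in 32.7% of 32851 RefSeq windows of the same length, AGGTCA in 14% and the TATA repeat in 5.25%. The members had 14 windows in all, since Igf2 had 4 and Igfbp2 had 2, and of these windows 6 held a GC box, 4 held AGGTCA and 1, that of Igfbp3, held the TATA repeat. All 3 printed windows were rich in CpG, with 32 in Igfbp3, 42 in Igf1r and 27 in Igf2r against a median of 6 over all windows. These matches describe the letters only.

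In PS, Igfbp3 was the member that differed most between genotypes. It had 52, 82 and 179 counts in KO PS (replicates 1, 3 and remaining), against 6, 8 and 9 counts in control PS. That is 3.11, 4.93 and 12.5 CPM in KO PS, against 0.361, 0.489 and 0.688 CPM in control PS. Every KO PS library lay above every control PS library, and the remaining replicate was the highest within each genotype. The mean was 6.85 ± 4.99 CPM in KO PS and 0.513 ± 0.165 CPM in control PS (SD, n = 3 each). The log2 fold change was 3.77 with a standard error (SE) of 0.545, a 13.7-fold higher fitted level in KO PS. Leaving out 1 library at a time gave 2.96 to 4.12, with the lowest value when the remaining KO PS replicate was left out. In the authors' deposited table the log2 fold change was 3.71. In bulk RNA, a change in the number of cells of a type cannot be told apart from a change in RNA per cell.

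Igfbp3 is also made by endothelial and other somatic cells, so the sums of their markers are given beside it. Over 9 endothelial markers the sum was 13.1, 9.32 and 38.8 CPM in KO PS, against 25.4, 24.4 and 20.6 CPM in control PS. KO PS replicates 1 and 3 had lower endothelial sums than all control PS libraries, and the remaining KO PS replicate had a higher one. Over 21 Sertoli cell markers, led by Clu, the sum was 1050, 1145 and 2065 CPM in KO PS, against 691, 632 and 1477 CPM in control PS, so the groups overlapped. With all PS libraries and no replicate block, none of the 20 tested was called by edgeR. At an unadjusted p under 0.05 there were 5, where 3145 of 15272 genes were. With the block 16 were called higher, where 1623 of 15272 genes were. Without the remaining control PS replicate 7 were called higher, and with only replicates 1 and 3 of each group 4 were. Each KO PS library had a higher Sertoli sum than the control with its own number. The remaining control PS replicate had a higher sum than KO PS replicates 1 and 3. The median log2 fold change of the tested Sertoli markers was 0.67, against 0.06 over all genes. Leydig cell sums were 546 to 1020 CPM in KO PS and 501 to 907 CPM in control PS, with 0 of 11 tested called, or 6 with the block. Macrophage sums were 28.1 to 43.8 CPM in KO PS and 28.7 to 46.6 CPM in control PS. The part of any somatic cell type in the level of Igfbp3 was not tested.

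**Figure D1:**
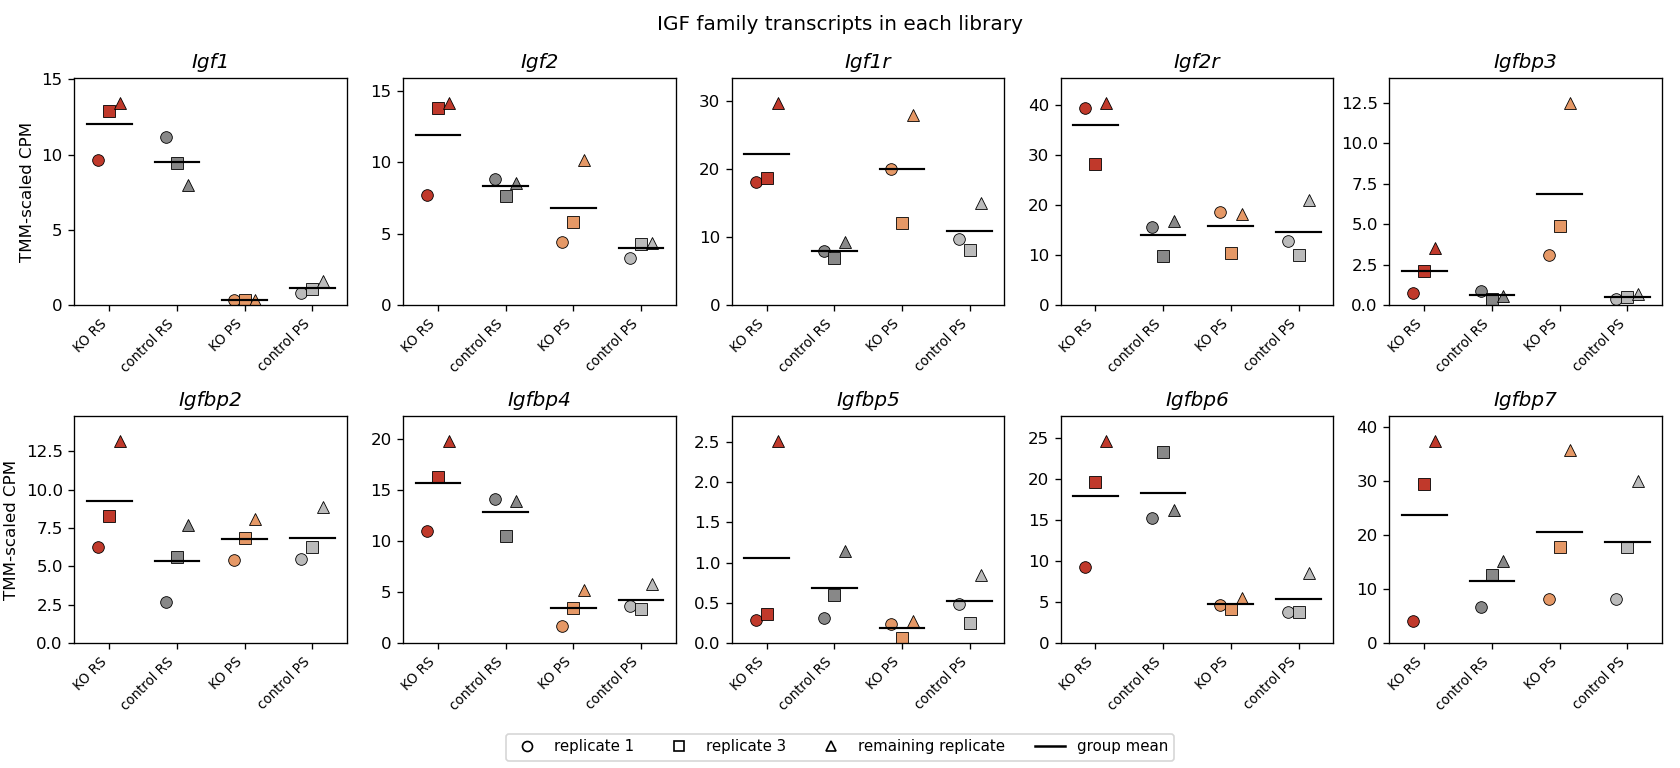
CPM (linear axis) of each of the 10 family members in each of the 12 libraries, with 1 point a library and a bar at the group mean. Igfbp3 stands at 3.11 to 12.5 CPM in KO PS and at 0.361 to 0.688 CPM in control PS, and Igf1r and Igf2r in KO RS lie above all control RS libraries.

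Besides Igfbp3, 8 of the 9 other members passed the filter on low counts in PS, and 0 of them were called at an adjusted p under 0.05 in edgeR's quasi-likelihood test, against 5.41% of 15272 genes (0.910% higher and 4.50% lower). Before adjustment 3 had an edgeR p under 0.05, Igf1r and Igf2 on the higher side and Igf1 on the lower. Of all 15272 genes 3145 did. DESeq2 called 1, Igf1r. With the replicate number as a block, 3 members were called, Igf1, Igf1r and Igf2, and so were 3476 genes in place of 826. Groups did not overlap for Igf2, which was above, and for Igf1, which was below, against 8.63% and 15.5% of all genes in those directions.

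Of the ligands, Igf1 was near the floor in KO PS. Igf1 had 6, 6 and 5 counts in KO PS, which is 0.358, 0.361 and 0.350 CPM, against 13, 18 and 21 counts in control PS, which is 0.782, 1.10 and 1.61 CPM. All KO PS libraries were below all control PS libraries. The log2 fold change was -1.63 (SE 0.478; edgeR adjusted p = 0.0654), with an adjusted p of 0.0237 under the replicate block and of 0.0143 in 1 fit of all 12 libraries. It was not called with DESeq2 (adjusted p = 0.126), by library size only (0.0880) or without the filter (0.0809). In the authors' deposited table it was -1.71, with an adjusted p of 0.00737. Beside it, the sum of 14 peritubular and smooth muscle markers was also lower, at 99.6 to 148 CPM in KO PS against 176 to 233 CPM in control PS. Of these, 3 of 12 tested, Acta2, Actg2 and Myh11, were called lower, against 4.50% of all genes. With the block 5 were called lower and 1 higher, where 1853 of 15272 genes were called lower and 1623 higher. Pericyte sums were 8.60 to 17.7 CPM in KO PS and 15.6 to 20.4 CPM in control PS, with 2 of 6 called lower (3 lower and 1 higher with the block). Of 13 round spermatid markers 9 were called lower in KO PS, and Igf1 was itself higher in control RS than in control PS, as given below. The part of any of these cells in the level of Igf1 was not tested.

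Igf2, a ligand transcribed from an imprinted locus, had 4.42, 5.83 and 10.1 CPM in KO PS, against 3.31, 4.28 and 4.36 CPM in control PS. Every KO PS library was above every control PS library, though KO PS replicate 1 by only a small margin. The log2 fold change was 0.81 (SE 0.340; edgeR adjusted p = 0.193, and 0.0431 with the block). In the annotation Igf2 overlaps its antisense gene Igf2os and the same-strand gene Gm49394, and since the strand setting of the counting is not given, reads could be split among them.

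Igf1r, the signalling receptor, had 20.1, 12.1 and 28.1 CPM in KO PS, against 9.80, 8.07 and 14.99 CPM in control PS. KO PS replicate 3 lay below the remaining control PS replicate, so the groups overlapped, although each KO PS library was above the control with its own number. The log2 fold change was 0.92 (SE 0.322; edgeR adjusted p = 0.120), and the adjusted p was 0.00411 with the replicate block and 0.0486 with DESeq2. Igf2r had 18.5, 10.5 and 18.3 CPM in KO PS, against 12.8, 10.02 and 21.0 CPM in control PS. Its groups overlapped, with a log2 fold change of 0.16 (SE 0.311; edgeR adjusted p = 0.828).

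The other binding proteins did not share the pattern of Igfbp3 in PS. Igfbp2, a carrier of both ligands, had 5.43, 6.85 and 8.12 CPM in KO PS, against 5.47, 6.29 and 8.87 CPM in control PS. Igfbp7, a secreted protein with low affinity for IGFs, had 8.12, 17.9 and 35.9 CPM in KO PS, against 8.18, 17.9 and 30.1 CPM in control PS. Its libraries differed over 3-fold within each genotype and matched by number between genotypes. Igfbp4, the carrier that the protease PAPP-A cleaves, had 1.67, 3.43 and 5.25 CPM in KO PS, against 3.61, 3.36 and 5.81 CPM in control PS. Igfbp6, which prefers IGF2, had 4.598, 4.21 and 5.53 CPM in KO PS, against 3.79, 3.79 and 8.49 CPM in control PS. The log2 fold changes of these 4 lay between -0.27 and 0.18, with SEs of 0.292 to 0.473 and edgeR adjusted p-values of 0.762 to 0.976. Igfbp5 did not pass the filter, with 4, 1 and 4 counts in KO PS against 8, 4 and 11 counts in control PS. The ratio of its summed counts, 9 in KO PS and 23 in control PS, was 0.378 after scaling to library size (95% exact counting interval 0.154 to 0.848, which covers counting error only).

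**Figure D2:**
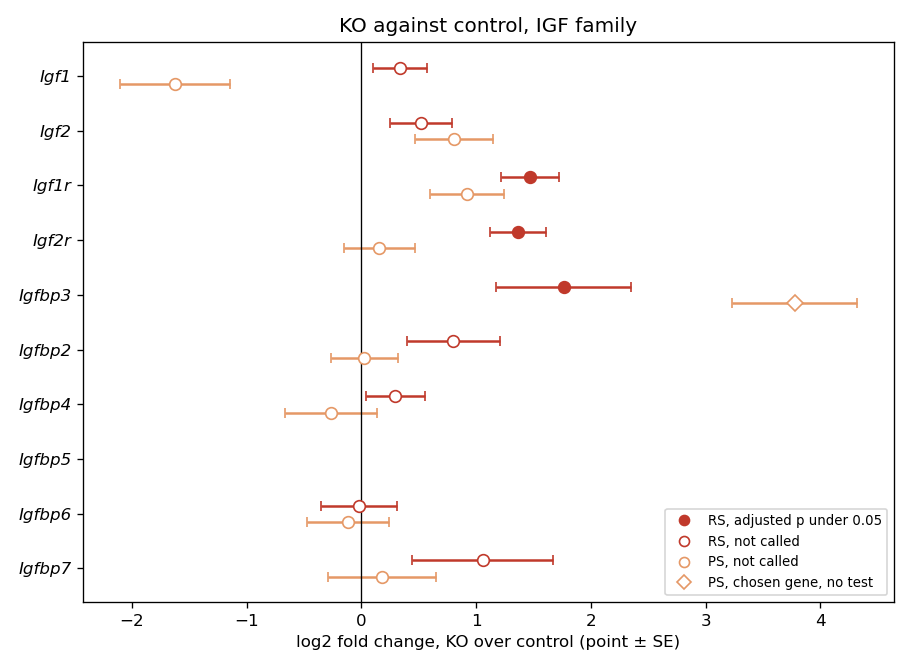
Log2 fold change of KO over control for each member that passed the filter, in RS and in PS, with bars of 1 SE. Igfbp3 lies at 1.76 in RS and 3.77 in PS, Igf1r and Igf2r lie at 1.47 and 1.36 in RS, and Igf1 lies at 0.34 in RS and -1.63 in PS.

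In RS, 3 members were higher in KO than in control animals, and they were Igfbp3 and both receptors. Of the 9 members that passed the filter, these 3 were called and none was called lower by edgeR's quasi-likelihood test, where 31.0% of 15934 genes were called in either direction and 18.7% were called higher. The members' share is read against that high background. With the replicate block 5 members were called, with Igfbp2 and Igfbp7 added, and 8736 genes in place of 4942. Of all called genes, 60.2% were higher in KO RS, and 84.5% when libraries were scaled by library size only. When the remaining replicates were left out, a setting chosen after seeing the data, 0 members and 0 genes were called by edgeR, with 2 members and 4103 genes at an unadjusted p under 0.05.

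Igf1r had 18.1, 18.7 and 29.8 CPM in KO RS, against 7.98, 6.89 and 9.28 CPM in control RS. Every KO RS library was above every control RS library, and the mean was 22.2 ± 6.59 CPM in KO RS and 8.05 ± 1.20 CPM in control RS (SD, n = 3 each). The log2 fold change was 1.47 (SE 0.254; edgeR adjusted p = 0.00512), a 2.77-fold higher level. The authors' deposited table gave 1.33, with an adjusted p of 0.000552.

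Igf2r had 39.4, 28.1 and 40.4 CPM in KO RS, against 15.6, 9.87 and 16.8 CPM in control RS. The groups did not overlap for Igf2r either, as for 25.7% of all genes in this direction. The mean was 36.0 ± 6.80 CPM in KO RS and 14.1 ± 3.69 CPM in control RS (SD, n = 3 each). The log2 fold change was 1.36 (SE 0.244; edgeR adjusted p = 0.00567), a 2.57-fold higher level, and both receptors were called with each library left out in turn. Airn, the noncoding gene antisense to Igf2r, had at most 6 counts in any library.

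Igfbp3 had 13, 42 and 45 counts in KO RS, which is 0.751, 2.13 and 3.54 CPM, against 14, 6 and 7 counts in control RS, which is 0.886, 0.397 and 0.570 CPM. KO RS replicate 1 lay below control RS replicate 1 and within the control range, and the other KO RS libraries lay above all controls. The mean was 2.14 ± 1.39 CPM in KO RS and 0.618 ± 0.248 CPM in control RS (SD, n = 3 each), and the log2 fold change was 1.76 (SE 0.587; edgeR adjusted p = 0.0444). The call was lost without KO RS replicate 3 (adjusted p = 0.0925), the remaining KO RS replicate (0.187), control RS replicate 3 (0.126) or the remaining control RS replicate (0.111). Without KO RS replicate 1 the log2 fold change was 2.15, with an adjusted p of 0.0105.

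KO RS replicate 1 was also lowest among the KO RS libraries in somatic markers. Its Sertoli sum was 95.8 CPM, against 430 and 242 CPM in the other KO RS libraries and 84.6 to 135 CPM in control RS. Its endothelial sum was 19.4 CPM, against 43.6 and 49.3 CPM in the other KO RS libraries and 23.7 to 32.3 CPM in control RS. Leydig sums were 71.7, 245 and 160 CPM in KO RS and 37.4 to 94.2 CPM in control RS. Of the tested Sertoli markers 3 of 17 were called higher in KO RS, and of the Leydig markers 3 of 11. Of all genes 18.7% were called higher. With the block 10 Sertoli and 7 Leydig markers were called higher, where 4582 of 15934 genes were. Both receptors were above every control in replicate 1, with Igf2r at 39.4 CPM and Igf1r at 18.1 CPM. What these cells contributed to Igfbp3 was not tested.

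Replicate 1 was the lowest KO RS library in 9 of the 10 members, all but Igf2r, and in Igfbp5, Igfbp6 and Igfbp7 it lay below every control RS library. Igfbp7 had 4.05, 29.5 and 37.6 CPM in KO RS, against 6.65, 12.7 and 15.1 CPM in control RS. The groups overlapped, and the log2 fold change was 1.06 (SE 0.615; edgeR adjusted p = 0.201). It was called with the block (adjusted p = 0.0442) and without KO RS replicate 1 (0.00931). An exon of Igfbp7 overlaps Polr2b, a subunit gene of RNA polymerase II on the opposite strand, whose log2 fold change in RS was 1.23 (edgeR adjusted p = 0.00487).

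The remaining members of the family were not called in RS. Igfbp2 had 6.24, 8.28 and 13.2 CPM in KO RS, against 2.66, 5.63 and 7.73 CPM in control RS, with overlapping groups and a log2 fold change of 0.80 (SE 0.402; edgeR adjusted p = 0.144, and 0.00539 with the block). Each KO RS library was above the control with its own number. Igf2 had 7.69, 13.8 and 14.2 CPM in KO RS, against 8.80, 7.62 and 8.55 CPM in control RS, with an adjusted p of 0.156, and of 0.0260 without KO RS replicate 1. Igf1 had 9.65, 12.9 and 13.4 CPM in KO RS, against 11.1, 9.47 and 7.98 CPM in control RS (edgeR adjusted p = 0.277). Igfbp6 had 9.31, 19.6 and 24.7 CPM in KO RS, against 15.2, 23.3 and 16.2 CPM in control RS, with a log2 fold change of -0.02 (edgeR adjusted p = 0.962). Igfbp4 had 10.98, 16.3 and 19.9 CPM in KO RS, against 14.2, 10.5 and 13.9 CPM in control RS, with a log2 fold change of 0.30 (edgeR adjusted p = 0.384). Igfbp5 did not pass the filter, with 5, 7 and 32 counts in KO RS against 5, 9 and 14 counts in control RS.

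Macrophages are a known source of Igf1, and their markers moved in RS. The sum of 11 macrophage markers was 224 to 290 CPM in KO RS and 74.1 to 91.3 CPM in control RS, and 10 of the 11 were called higher, against 18.7% of all genes. Cd74 had 51.4, 54.4 and 59.9 CPM in KO RS, against 4.18, 11.3 and 6.43 CPM in control RS. Igf1 stood beside them at 12 ± 2.05 CPM in KO RS and 9.53 ± 1.58 CPM in control RS (SD, n = 3 each). Pericyte and mural marker sums were 44.5 to 91.7 CPM in KO RS and 23.2 to 35.5 CPM in control RS. These sums were led by Mcam, at 32.5 to 55.8 CPM in KO RS and 11.9 to 19.5 CPM in control RS. Mcam was the only 1 of 6 tested markers of this list that was called. Peritubular sums were 342 to 640 CPM in KO RS and 480 to 560 CPM in control RS. Of 17 tested spermatogonial markers, 10 were called higher in KO RS, with sums of 929 to 1037 CPM in KO RS and 881 to 1150 CPM in control RS. Most of these sums was Dmrtb1, at 565 to 806 CPM in KO RS and 785 to 1020 CPM in control RS. Dmrtb1 was not called (log2 fold change -0.38, edgeR adjusted p = 0.152), so the sums mostly follow that gene and not the 10 called. The part of these cells in the levels of Igf1, Igf1r and Igf2r was not tested.

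**Figure D3:**
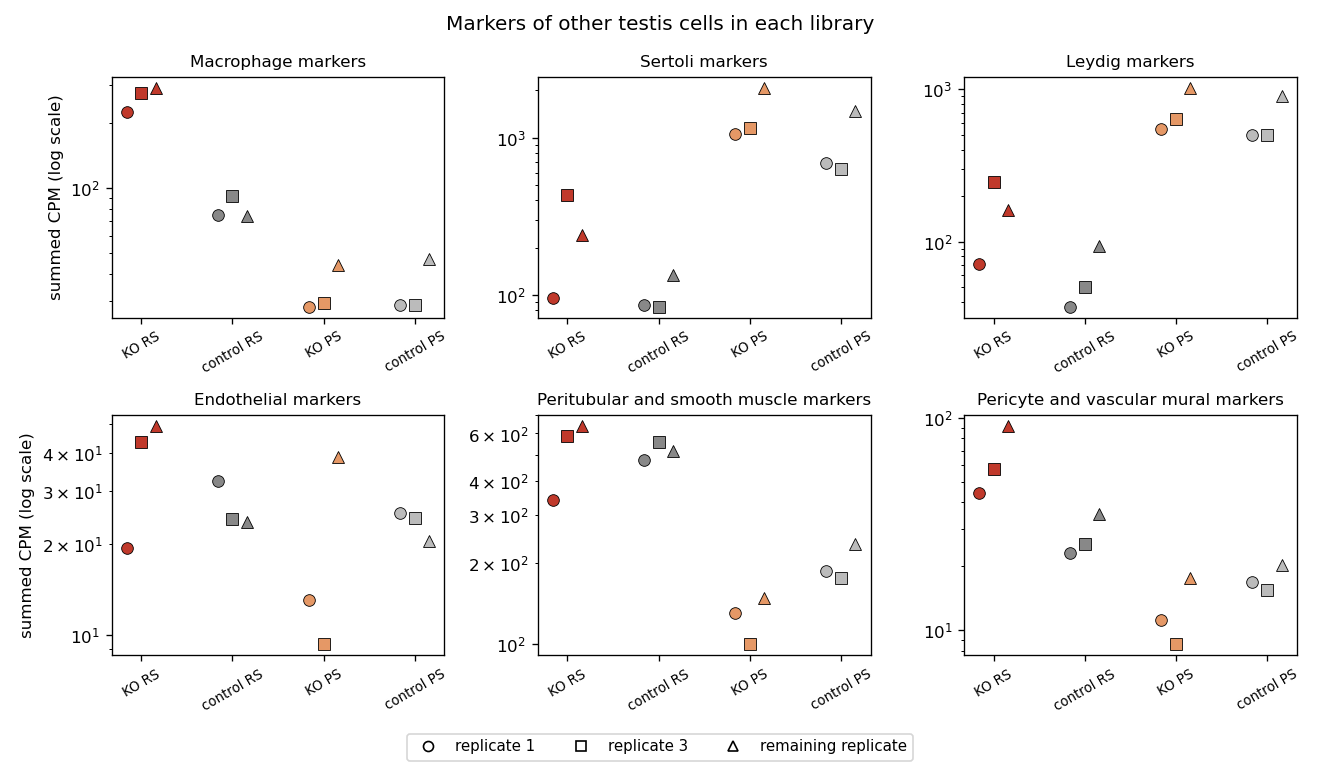
Summed CPM (log axis) of marker lists for other testis cell types in each of the 12 libraries, with 1 point a library. Macrophage sums were 224 to 290 CPM in KO RS and 74.1 to 91.3 CPM in control RS, and Sertoli sums were 1050 to 2065 CPM in KO PS and 632 to 1477 CPM in control PS, above all RS libraries.

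Between stages, the ligands and a pair of carriers were higher in RS than in PS. In control animals, 4 of the 10 members were called higher in control RS than in control PS and none was called lower, against 58.8% of 16581 genes called in either direction, 27.8% higher and 30.9% lower. Igf1 was the most different, with 11.1, 9.47 and 7.98 CPM in control RS against 0.782, 1.10 and 1.61 CPM in control PS. All control RS libraries were far above all control PS libraries, and the log2 fold change was 3.05 (SE 0.298; edgeR adjusted p = 1.43e-06). Igfbp6 had 15.2, 23.3 and 16.2 CPM in control RS against 3.79, 3.79 and 8.49 CPM in control PS, a log2 fold change of 1.78 (SE 0.375; edgeR adjusted p = 0.00096). Igfbp4 had 14.2, 10.5 and 13.9 CPM in control RS against 3.61, 3.36 and 5.81 CPM in control PS, a log2 fold change of 1.60 (SE 0.362; edgeR adjusted p = 0.00163). Igf2 had 8.80, 7.62 and 8.55 CPM in control RS against 3.31, 4.28 and 4.36 CPM in control PS, a log2 fold change of 1.06 (SE 0.322; edgeR adjusted p = 0.0107). In each of these 4 genes the groups were fully apart, as for 30.1% of all genes in this direction.

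Igfbp3 did not differ by stage beyond the spread, at 0.618 ± 0.248 CPM in control RS and 0.513 ± 0.165 CPM in control PS (SD, n = 3 each; log2 fold change 0.30, edgeR adjusted p = 0.741). The receptors and Igfbp2, Igfbp5 and Igfbp7 were not called either, with log2 fold changes between -0.70 and 0.38. Markers of other cells also differed by stage. Macrophage sums were 74.1 to 91.3 CPM in control RS against 28.7 to 46.6 CPM in control PS. Of 11 macrophage markers 9 were called higher and 1 lower, against 27.8% and 30.9% of all genes. Peritubular sums were 480 to 560 CPM in control RS against 176 to 233 CPM in control PS, while Sertoli sums were 84.6 to 135 CPM in control RS against 632 to 1477 CPM in control PS. The part of these cells in the levels of Igf1, Igf2, Igfbp4 and Igfbp6 was not tested.

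Per kilobase of exon, which allows levels of different genes to be set side by side, Igfbp7 and Igfbp6 had the highest means in every group. In KO RS the order began with Igfbp7 at 19.6 ± 14.5 and Igfbp6 at 16.1 ± 7.05 CPM per kb, and in control RS with Igfbp6 at 16.4 ± 3.98 and Igfbp7 at 9.49 ± 3.61 CPM per kb. In KO PS it began with Igfbp7 at 17.1 ± 11.7 and Igfbp6 at 4.30 ± 0.609 CPM per kb, and in control PS with Igfbp7 at 15.5 ± 9.06 and Igfbp6 at 4.82 ± 2.44 CPM per kb (SD, n = 3 in each group). The libraries of this pair overlapped in KO RS and in control PS, and those of Igfbp6 overlapped those of Igfbp2 in both PS groups, so the order there is within the spread. Igfbp5 had the lowest mean in every group, and its libraries overlapped those of the next member in each, which was Igfbp3 in both RS groups and Igf1 in both PS groups.

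Igfbp3 was among the lowest members in 3 of the 4 groups. Igfbp3 stood at 0.684 ± 0.445 CPM per kb in KO RS and 0.197 ± 0.0792 CPM per kb in control RS, rank 9 of 10 in both, and at 0.164 ± 0.0527 CPM per kb in control PS, rank 8. In KO PS it had rank 4, at 2.19 ± 1.60 CPM per kb, where its range of 0.992 to 4 overlapped those of all members at ranks 2 to 8, so its rank is within the spread. Igf1 had rank 9 in both PS groups, at 0.0360 ± 0.000578 CPM per kb in KO PS and 0.117 ± 0.0420 CPM per kb in control PS.

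**Figure D4:**
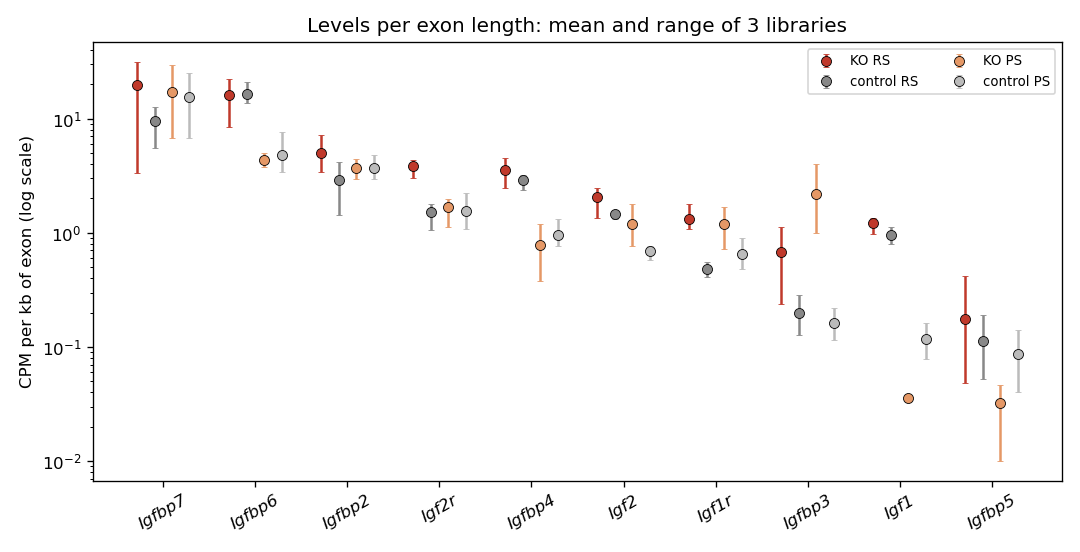
Mean CPM per kilobase of exon (log axis) of the 10 members in the 4 groups, with bars from the lowest to the highest of 3 libraries. Igfbp3 has rank 4 in KO PS at 2.19 CPM per kb and rank 8 or 9 in the other groups.

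Whether the KO difference itself differed between RS and PS was tested as an interaction, which uses the same KO and control libraries as the comparisons above. Of the 9 members other than Igfbp3, 0 were called by edgeR, and 0.0181% of 16581 genes were called. At an unadjusted p under 0.05 in edgeR there were 2, Igf1 and Igf2r, where 2253 of 16581 genes were. DESeq2 called 0 members and 95 genes, and the replicate block gave 2 members and 1285 genes. For Igf1 the KO difference in RS minus that in PS was 1.99 on the log2 scale (SE 0.454; edgeR adjusted p = 0.146, and 0.0184 with the block). For Igf2r it was 1.24 (SE 0.427; edgeR adjusted p = 0.244, and 0.00658 with the block). For Igf1r it was 0.59 (SE 0.446; edgeR adjusted p = 0.572). Igfbp3, given with no test, was at -1.99 (SE 0.905), a smaller fitted rise in RS than in PS.

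Igfbp1, the neighbouring binding protein gene, lies 3539 bases from Igfbp3 on the opposite strand. Igfbp1 had 0 counts in KO RS and 2 in control RS, and 2 in KO PS and 7 in control PS, summed over 3 libraries. No Igfbp1 library was above 3 counts, the floor, so no fold is given.

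The wider pathway was read from 3 lists of other genes. The list of further IGF axis genes held insulin-like ligands, carriers, carrier-like proteins and the proteases that free IGFs. In RS 15 of its genes were tested, of which Lrp1 was called higher and Insl6 lower, against 18.7% of all genes called higher and 12.4% lower. The median log2 fold change was 0.01, against 0.02 over all genes. Lrp1, an endocytic receptor reported to bind IGFBP3, had a log2 fold change of 1.08 (edgeR adjusted p = 0.0309), and Insl6, a germ cell relaxin-family peptide, had -0.88 (0.0147). In PS 14 were tested and 0 called by edgeR, and the median was 0.07, against 0.06 over all genes. There were 2 at an unadjusted p under 0.05, where 3145 of 15272 genes were. With the block 2 were called, where 3476 genes were.

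The list of IGF receptor signalling held 30 genes of the insulin receptor substrate, PI3K, AKT, mTOR and RAS branches. In RS 29 were tested, 9 were called higher and 0 lower, with a median log2 fold change of 0.23, against 0.02 over all genes and 18.7% of all genes called higher. Grb2, the adaptor that links receptors to RAS, had 16.6, 17.4 and 18.2 CPM in KO RS, against 3.48, 6.43 and 6.999 CPM in control RS (log2 fold change 1.64, edgeR adjusted p = 0.00466). Foxo1, a transcription factor that AKT inhibits, had 11.9, 18.6 and 19.9 CPM in KO RS, against 4.81, 5.96 and 4.88 CPM in control RS (1.69, 0.00370). Rictor, a subunit of mTOR complex 2, had 44.3, 39.1 and 46.5 CPM in KO RS, against 21.1, 13.8 and 16.3 CPM in control RS (1.35, 0.00347). In all 3 genes every KO RS library was above every control RS library. Irs1, the docking protein below IGF1R, had 16, 34 and 33 counts in KO RS, against 6, 2 and 8 counts in control RS, with a log2 fold change of 2.18 (edgeR adjusted p = 0.0218). The other 5 were Akt1, Rheb, Shc1, Pik3r2 and Tsc2, with log2 fold changes of 0.59 to 1.08 and adjusted p-values of 0.0109 to 0.0359. These 9 do not act in 1 direction on the pathway, since Foxo1 is restrained by it and Tsc2 restrains mTOR complex 1.

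In PS, 30 of the signalling genes were tested, and 1 was called higher and 0 lower, against 0.910% of all genes called higher and 4.50% lower. The median was 0.16, against 0.06 over all genes. That gene was Akt1, a kinase downstream of PI3K, with 45.2, 40.9 and 54.6 CPM in KO PS, against 25.1, 21.0 and 33.03 CPM in control PS. The groups did not overlap for Akt1 (log2 fold change 0.87, edgeR adjusted p = 0.0295), and in RS it was 0.88 (0.0109). With the block, 5 signalling genes were called higher and 1 lower in PS, and 12 higher and 4 lower in RS. Of all genes, the block called 1623 higher and 1853 lower of 15272 in PS. In RS it called 4582 higher and 4154 lower of 15934.

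The list on Igf2 RNA and its imprinted neighbours gave 2 higher and 1 lower of 7 tested in RS, where 18.7% of all genes were called higher and 12.4% lower, with a median log2 fold change of 0.78, against 0.02 over all genes. H19, the noncoding RNA of the imprinted domain that holds Igf2, had 2.54, 5.38 and 6.29 CPM in KO RS, against 1.27, 1.46 and 1.06 CPM in control RS, with no overlap (1.90, edgeR adjusted p = 0.00914). Igf2bp1, an RNA-binding protein named for its binding to Igf2 RNA, was at 0.78 (0.0328), and its relative Igf2bp3 was at -0.53 (0.0310). In PS 0 were called higher and 1 lower of 7 tested, where 4.50% of all genes were called lower, with a median of -0.32, against 0.06 over all genes. This was Igf2bp2, with 17, 13 and 14 counts in KO PS against 49, 50 and 22 counts in control PS (-1.43, edgeR adjusted p = 0.0486). With the block the list gave 1 higher and 2 lower in PS, and 4 higher and 1 lower in RS. These are read against the calls over all genes with the block, given above.

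Leaving out 1 library at a time, the calls of Rictor, Foxo1, Grb2, Rheb and H19 in RS held each time, and those of Akt1, Shc1 and Insl6 in RS were lost only without the remaining KO RS replicate (adjusted p-values of 0.0541 to 0.0622). The calls of Irs1, Lrp1, Pik3r2, Igf2bp1, Igf2bp3 and Tsc2 in RS were each lost in 3 to 5 of 6 such fits, and those of Akt1 and Igf2bp2 in PS in all but the fit without the remaining control PS replicate. Scaling by library size only ended the calls of Akt1 in PS (adjusted p = 0.0876), Igf2bp2 in PS (0.0649) and Igf2bp3 in RS (0.195), and 1 fit of all 12 libraries ended that of Igf2bp2 in PS (0.0845).

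The genes with the profile most like that of Igfbp3 were sought over all 12 libraries among 14867 genes with a mean of at least 1 CPM. Likeness was the root mean square difference between log2 CPM profiles, each centred on its gene's mean, and since it used every library, the values are a description with no test. The closest 5 were Ntn4 at 0.572, Robo4 at 0.734, Timp1 at 0.748, Serpina3n at 0.779 and Padi2 at 0.796. Ntn4 encodes a secreted netrin, Robo4 an endothelial guidance receptor, Timp1 a metalloproteinase inhibitor, Serpina3n a secreted serine protease inhibitor and Padi2 a peptidylarginine deiminase. Ntn4 had 5.26, 4.51 and 8.75 CPM in KO PS, against 0.902, 0.855 and 1.99 CPM in control PS, and 1.73, 3.30 and 2.91 CPM in KO RS, against 1.96, 0.662 and 1.22 CPM in control RS. As for Igfbp3, KO RS replicate 1 was within the control range for Ntn4. Robo4 had 2.51, 2.77 and 5.81 CPM in KO PS, against 0.782, 1.04 and 0.765 CPM in control PS, and 2.43, 2.29 and 3.77 CPM in KO RS, against 0.760, 0.199 and 0.651 CPM in control RS, with no overlap at either stage.

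Among the family, Igf1r was closest to Igfbp3 at 1.04, which ranked 116 of the 14867, and Igf1 was farthest at 2.85, which ranked 14832. Between them stood Igfbp7 at 1.31, Igf2 at 1.31, Igfbp2 at 1.36, Igf2r at 1.43, Igfbp6 at 1.87 and Igfbp4 at 1.91, and Igfbp5 was below the minimum of 1 CPM.

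**Figure D5:**
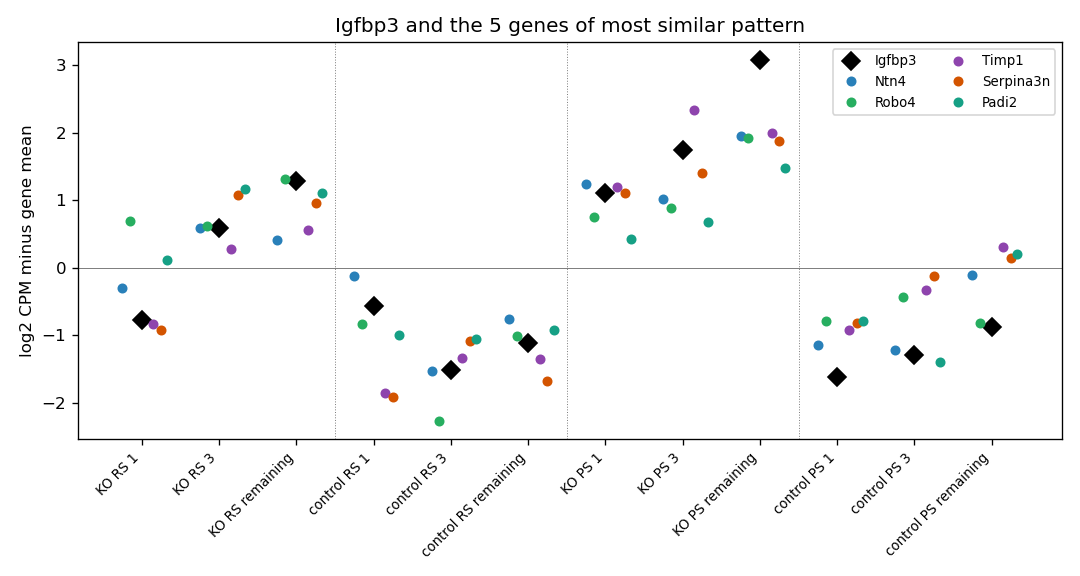
Log2 CPM minus the gene's mean over 12 libraries, for Igfbp3 (diamonds) and the 5 genes of most similar profile, with 1 point a library. By group mean each gene is highest in KO PS and lowest in control RS and control PS, but single libraries overlap. Padi2 stands at 1.16 in KO RS replicate 3 and 0.43 in KO PS replicate 1. Serpina3n in KO RS replicate 1, at -0.92, lies below its control PS libraries. Igfbp3 exceeds the other 5 in the remaining KO PS replicate.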

How the data were processed

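The submitters' processing notes name HISAT2 2.1.0, HTSeq, DESeq2 and the build mm10 for the counts per gene. The authors deposited these counts as 1 table per cell type, with the authors' log2 fold changes and p-values. Libraries were strand-specific, per the labels' protocols, while no label or header gives the annotation or the strand setting. The 12 normalized columns were not used.

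The deposited counts were tested with edgeR 4.0.16 in R 4.3.3 (quasi-likelihood, TMM, filterByExpr, Benjamini-Hochberg over all genes tested, threshold 0.05). Each KO comparison used its 6 libraries, and the stage and interaction used 1 fit of all 12. Levels used the 12-library scaling, with a prior count of 2 for log2. Exon lengths and overlaps came from GENCODE on GRCm38. The procedure was tested on simulated data.

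Members and lists were chosen with earlier results of these data known. Named genes were the members, list genes called in either cell type, Igfbp1, Hdac3, leading markers and the 5 most like Igfbp3; Polr2b, Igf2os, Gm49394, Airn and Cd74 were added for overlap or as markers. No p is given for Igfbp3 in PS or the interaction.

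Replicate numbers were read as pairing the samples, with the numbers taken from the titles for replicates 1 and 3 and by elimination for the remaining ones. The titles do not say that KO and control samples of the same number were matched. The main edgeR fits did not use the pairing, and only the replicate block did. Deviations from group means correlated at 0.310 to 0.408 between same-numbered libraries of a cell type and at -0.416 to 0.00420 otherwise, and across cell types at 0.134 to 0.495 and -0.478 to 0.199. The lowest chi-square per gene between replicates was 16.6, so none repeated another. Alternatives were DESeq2 1.42.0, library size scaling, no filter, the block, 1 fit of 12 libraries, and leaving out libraries.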

Additional observations from a re-analysis of the deposited data

How the results depend on the processing

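Calls of family members in PS were 1 with DESeq2, 3 with the replicate block and 1 in the fit of 12 libraries, and those in RS were 5 with the block, 0 with only replicates 1 and 3 and 2 to 5 with 1 library left out. In the interaction they were 2 with the block. The stage calls stayed at 4 with any 1 library left out (8772 to 9970 genes). All genes called in PS were 1257 with DESeq2, 3476 with the block and 288 to 1592 with 1 library left out. In RS they were 8736, 0 with only replicates 1 and 3, and 1546 to 6391. In the interaction they were 95 with DESeq2, 35 by library size only, 6 without the filter, 1285 with the block, 0 with only replicates 1 and 3 (1018 at an unadjusted p under 0.05 in edgeR) and 0 to 6 with 1 library left out.

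Of 745 recomputed fold changes, 37 turned direction, all of them of members not called in that comparison. Igfbp2 in PS was -0.015 by library size only, -0.00141 without the filter and -0.014 in the fit of 12 libraries. With only replicates 1 and 3, Igfbp6 and Igfbp7 in PS were 0.21 and -0.011. Igfbp6 in RS was 0.27 by library size only, a scaling that moved the median of all genes in RS to 0.28, so relative to that median it was level. Igf2r between stages was 0.057 with DESeq2, 0.062 without the filter and 0.26 with only replicates 1 and 3. In the interaction, Igf2 was 0.0071 by library size only, and Igfbp6 was -0.026 with the block and -0.71 with only replicates 1 and 3. With 1 library left out, the PS values ran from -0.17 to 0.22 for Igfbp2, -0.74 to 0.063 for Igfbp4, -0.32 to 0.34 for Igfbp6, -0.53 to 0.67 for Igfbp7 and -0.057 to 0.48 for Igf2r. Igfbp6 in RS ran from -0.32 to 0.28. Between stages Igfbp3 ran from -0.043 to 0.64, Igfbp5 from -0.094 to 0.95 and Igf2r from -0.26 to 0.40. In the interaction Igfbp6 ran from -0.41 to 0.32 and Igf2 from -0.61 to 0.14. The cause of these changes was not tested. The block changed no other call of a member. The level of Igf1 in KO PS rests on 5 to 6 counts per library.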
